A study of Arabidopsis thaliana with 31 samples.

Results

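The 8 cellulose synthase (CESA) genes of the Arabidopsis thaliana primary and secondary cell wall were examined in 1 poly(A)-seq library. Reads were taken by the gene that each alignment names, with 5 genes of the primary wall (CESA1, CESA3, CESA6, CESA2 and CESA5) and 3 of the secondary wall (CESA4, CESA7 and CESA8). They came to 917 of the 2786281 reads in the library, or 0.0329% (95% Clopper-Pearson interval 0.0308 to 0.0351%), and to 8 of the 19829 genes named. The rule that takes the reads uses gene names only and no measured value, but the gene family was picked with earlier results of these data known. The study asked how the poly(A)-binding proteins AtPAB2, AtPAB4 and AtPAB8 bind and regulate mRNAs, and it used poly(A)-seq to read tails in Col, the wild type. Its samples from CLIP-seq, ribosome profiling, mRNA-seq and the mRNA decay course were not used here. The plants were whole 2-week-old Col seedlings grown on plates with sucrose in long days, with no mutation, transgene or drug. With 1 library there were no replicates, so no value below has a replicate error and no test between conditions was made. Intervals are exact 95% intervals for counting error only, and they take each read as independent. Of the CESA reads, 59.8% repeat another read, so the intervals are too narrow where such repeats are copies of 1 molecule. The reads carry no molecular identifiers, so copies cannot be told from separate molecules.

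Cellulose is spun at the plasma membrane by rosette-shaped complexes built from several kinds of CESA subunit. In Arabidopsis, complexes of growing cells hold CESA1, CESA3 and a protein of the CESA6 class (CESA6, CESA2 or CESA5), whereas complexes that thicken the walls of xylem vessels and fibres hold CESA4, CESA7 and CESA8, whose mutants have collapsed xylem. The mRNA of each gene is cleaved downstream of its stop codon and a poly(A) tail is added at the cut. Plant genes often use many neighbouring cleavage positions, which are guided by an AATAAA-like near-upstream element and a TGTA-rich (UGUA in RNA) far-upstream element. In poly(A)-seq, RNA is cut partially with RNase T1, which cleaves after G, the tailed fragments are captured, and each read runs through the last bases of the mRNA into the tail. The last base left after removal of the tail is called the 3′ end here, and its distance is given in nt after the stop codon along the transcript. One read covers 1 mRNA end, whatever the length of the mRNA, so read numbers of different genes were compared without division by gene length. The study kept only reads in which the adaptor joined to the tail could be recognized. Read numbers may therefore also depend on tail length and on where G lies near the end, which was not tested. Reads include copies of the same fragment, so counts with identical reads counted once are given beside them.

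The reference sequence around the most used 3′ end of each gene is shown because these positions carry the results on cleavage. Each sequence is RefSeq TAIR10.1, RNA strand, 5′ to 3′, in lower case, with 20 nt up to the 3′ end and 10 nt after it, and the capital marks the 3′ end itself. For CESA2, CESA5 and CESA7 a most used end of a second site is shown too. Any A that follows the capital in the genome cannot be told from the first A of the tail. CESA1 (chr4:15640642-15640671, minus strand) ended at 357 nt, CESA3 (chr5:1530189-1530218, minus) at 202 nt, CESA6 (chr5:25886630-25886659, plus) at 316 nt, and CESA2 at 193 nt (chr4:18302064-18302093, plus) and 288 nt (chr4:18302159-18302188). CESA5 ended at 140 nt (chr5:3078095-3078124, plus) and 263 nt (chr5:3078218-3078247), CESA4 at 137 nt (chr5:17719682-17719711, plus), CESA7 at 130 nt (chr5:5736719-5736748, minus) and 202 nt (chr5:5736647-5736676), and CESA8 at 116 nt (chr4:10312720-10312749, minus). All lie in the 3′-UTR within the last exon.
CESA1: gaatctgaagtttatatgcTaagcttttca
CESA3: taattaaagtgaaagcgaaTatttttttgt
CESA6: tattacagaagagcattttCaatctgtaat
CESA2 at 193 nt: tagaattgtttgtttttctTttttacatgt
CESA2 at 288 nt: aatggattttagtgttgttTtacaccttct
CESA5 at 140 nt: aagaaaagaaggatttagaTatataatgtt
CESA5 at 263 nt: aagagaggtgttatcttatTaattctttca
CESA4: aaaactttgattcacttgtGaaataaagta
CESA7 at 130 nt: aaacagatggatctgggttTattgtgagcg
CESA7 at 202 nt: ttacacagtaaaagattcaCagatacttcc
CESA8: aatgttcttattttagcaaCaagtcttggc

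The library held 3 sequencing lanes, as the read names show, with 1133995 reads in lane 3, 1122012 in lane 4 and 530274 in lane 5. The median gene had 20 reads (quartiles 6 and 63). The seedling label was checked against marker genes. Leaf markers were high, with 44235 reads of RBCS1A and 32888 of LHB1B2, and the root gene PYK10 had 2556 reads (by position 44197, 71146 and 4406). Most of these reads, 1875 of 2556 for PYK10 and nearly all for the leaf genes, had a mapping quality of 0 or 1, the low scores Bowtie2, the aligner, gives to reads that align about equally well at more than 1 place. Because the alignments name transcripts, such places can include isoforms of the same gene as well as other genes. Flower genes gave 0 reads (AP3) and 4 reads (PI), and 3 of 3 seed storage genes (CRA1, CRU3 and OLEO1) gave 0 reads.

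Reads of the primary wall genes made up most of the CESA reads. Together CESA1, CESA3, CESA6, CESA2 and CESA5 had 868 of the 917 reads, or 94.7% (93.0 to 96.0%), and CESA4, CESA7 and CESA8 had the other 49. CESA1 and CESA3, the subunits that every primary wall complex needs, gave 677 reads, or 73.8% of all CESA reads (70.9 to 76.6%). The primary wall share was 95.7% in lane 3, 94.9% in lane 4 and 92.5% in lane 5, with overlapping intervals. In RNA from whole seedlings, fewer cells of a type and less RNA per cell cannot be told apart, so a low count does not say in how many cells a gene was on.

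CESA1 (AT4G32410) had the most reads of the 8 genes, 383 (Poisson interval 346 to 423), or 137 RPM (reads per 1000000 reads), which ranked 1072 among the 19829 genes named. CESA3 (AT5G05170, also CEV1) followed with 294 reads (261 to 329.6), 106 RPM, at rank 1366. Thus both shared primary wall subunits stood at percentile 93.1 or above among named genes, and their read numbers differed by 1.30-fold with intervals that did not overlap. When identical reads were counted once, CESA1 kept 131 (109.5 to 155) and CESA3 kept 125 (104 to 149), and these intervals overlapped.

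The CESA6 class fell below both. CESA6 (AT5G64740) had 91 reads (73.3 to 112), CESA2 (AT4G39350) had 73 (57.2 to 91.8), and CESA5 (AT5G09870), which also acts in seed coat mucilage, had 27 (17.8 to 39.3). CESA6 and CESA2 did not differ beyond their intervals, while CESA5 was lower than both. In summed form, the CESA6 class had 191 reads (165 to 220.1), set beside 383 for CESA1 and 294 for CESA3. Counting identical reads once gave 88 for the class (70.6 to 108), 131 for CESA1 and 125 for CESA3, so the class was still the lowest of the 3 subunit kinds, but its interval then overlapped that of CESA3.

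The secondary wall genes were, with CESA5, the lowest of the 8 genes. CESA7 (AT5G17420, IRX3) had 28 reads (18.6 to 40.5), CESA4 (AT5G44030) had 13 (6.92 to 22.2), and CESA8 (AT4G18780, IRX1) had 8 (3.45 to 15.8), which is 2.87 RPM and 47.9-fold below CESA1. In the order CESA1, CESA3, CESA6, CESA2, CESA7, CESA5, CESA4, CESA8, the intervals of neighbours overlapped for CESA6 and CESA2, for CESA7 and CESA5, for CESA5 and CESA4, and for CESA4 and CESA8. They did not overlap for CESA1 and CESA3, CESA3 and CESA6, or CESA2 and CESA7. The lane with the fewest reads held 8 of the 13 CESA4 reads, against 3 and 2 in lanes 3 and 4. Of those 13 reads, 8 were copies of 1 fragment, found in all 3 lanes (5 copies in lane 5).

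**Figure D1:**
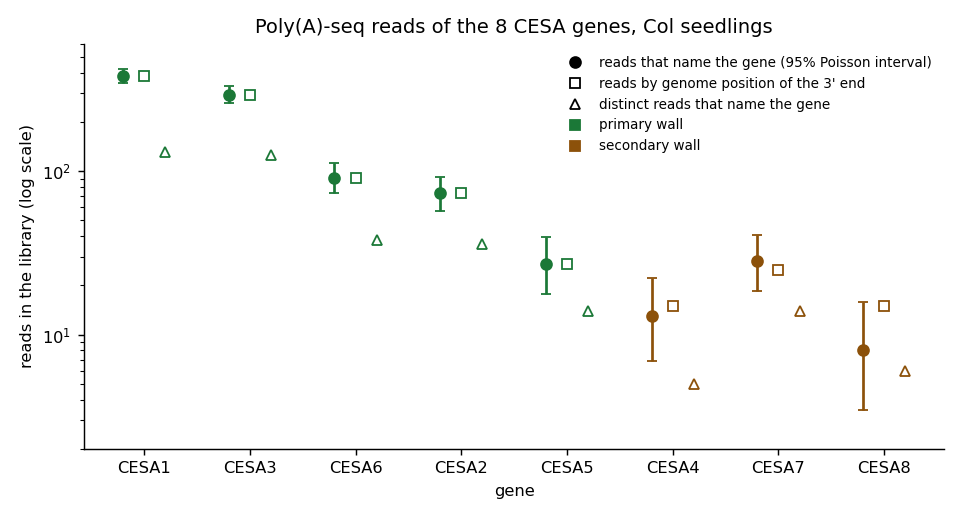
Reads of each CESA gene on a log axis, as named in the alignments (filled circles, with 95% Poisson intervals), by genome position of the 3′ end (squares) and with identical reads counted once (triangles), for primary wall (green) and secondary wall (brown) genes. CESA1 and CESA3 lie at 383 and 294 reads, and CESA4, CESA7 and CESA8 lie between 8 and 28. The largest gain by position is at CESA8, with 15 reads against 8 by name, which is within the interval of the 8 (3.45 to 15.8).

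The listed partner and wall genes were counted the same way. CESA9 and CESA10, the other CESA genes, had 0 reads each, for which a limit of 3 reads or 1.08 RPM was taken. Among 9 partners of the complex, each had at least 1 read (median 36.0). CTL1, a chitinase-like protein needed for primary wall cellulose, had 1081 reads, COB, a cell surface protein needed for oriented cell expansion, had 486, and the endoglucanase KOR1 had 262. CSI1, which links the complex to microtubules, had 36 reads and CSI3 had 6. The relatives of these genes that act with the secondary wall were lower, with 33 reads for CTL2 and 20 for COBL4. AT1G45688 and AT5G42860 had 40 and 16 reads. All reads of CTL1, COB, COBL4 and CSI3, and 37 of the 40 of AT1G45688, had a mapping quality of 0 or 1, so these genes would keep 0 or few reads if higher scores were required, while KOR1 had 5 such reads of 262 and CSI1, CTL2 and AT5G42860 had 0.

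Reads of xylem wall genes were few, with a median of 5.50 over 12 genes, 11 of them with a read. The protease XCP2, found in vessel elements, had 261 reads and its relative XCP1 had 25, so vessel markers were detected in the library. The xylan synthesis genes IRX9, IRX10 and IRX14 had 3, 11 and 11 reads, and GAUT12 had 7 by name and 14 by position. The laccase LAC17 had 38 reads, 27 of them of low mapping quality, and LAC4 had 0. The regulators MYB46, MYB83, VND6 and VND7 had 4, 2, 2 and 2 reads, both VND6 reads being listed antisense. The secondary wall CESA genes, with a median of 13.0 reads, lay within the range of these genes. Of the 6 cellulose synthase-like genes, which make other wall polysaccharides or act in tip-growing and dividing cells, CSLA9 had the most reads (100) and CSLD2 the fewest (11), with a median of 35.5.

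**Figure D2:**
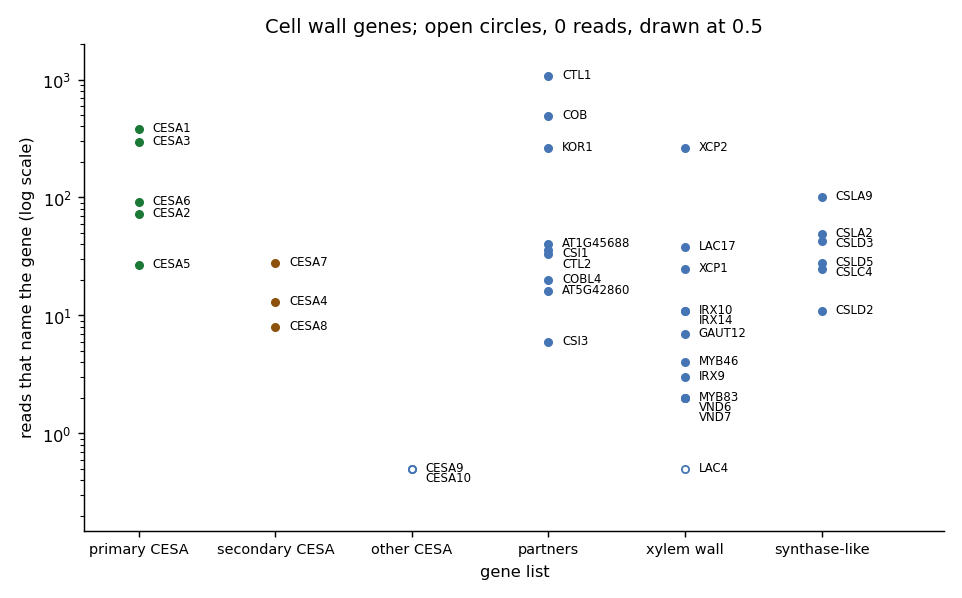
Reads that name each gene, on a log axis, for the primary and secondary wall CESA genes and 4 lists of other wall genes. Each point is 1 gene. Primary wall CESA genes have a median of 91.0 reads and secondary wall CESA genes one of 13.0, beside medians of 36.0 for partners, 5.50 for xylem wall genes and 35.5 for synthase-like genes. CESA9, CESA10 and LAC4, with 0 reads, are drawn as open circles.

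The reads that name CESA genes ended in the 3′-UTR. No sense read of the 8 genes ended in coding sequence, the nearest 3′ end lay 21 nt after the stop codon (CESA8), and the farthest 3′ end lay 1 nt (CESA4) to 101 nt (CESA1) short of the annotated end. Reads were placed within the annotated transcript they name, so no named sense read could end past it. The used 3′-UTR length, taken as the median distance of the 3′ ends, was 352 nt for CESA1, 316 for CESA6, 202 for CESA3, 193 for CESA2, 184 for CESA7, 140.0 for CESA5, 137 for CESA4 and 98.5 for CESA8. The median over the 8 genes was 188 nt, against 182 nt (quartiles 141 and 235) over the 9294 genes with at least 20 reads. Hence the median of the family was near that of other genes, while CESA1 and CESA6 stood at percentiles 93.7 and 90.9 of those genes. CESA8, with 8 reads and so below the minimum of 20, would stand at percentile 7.99. The median was 202 nt over the 5 primary wall genes (140.0 to 352) and 137 nt over the 3 secondary wall genes (98.5 to 184), so the ranges overlapped. Their annotated 3′-UTRs, with a median of 395 nt (269 to 519) and 222 nt (159 to 229), did not overlap.

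**Figure D3:**
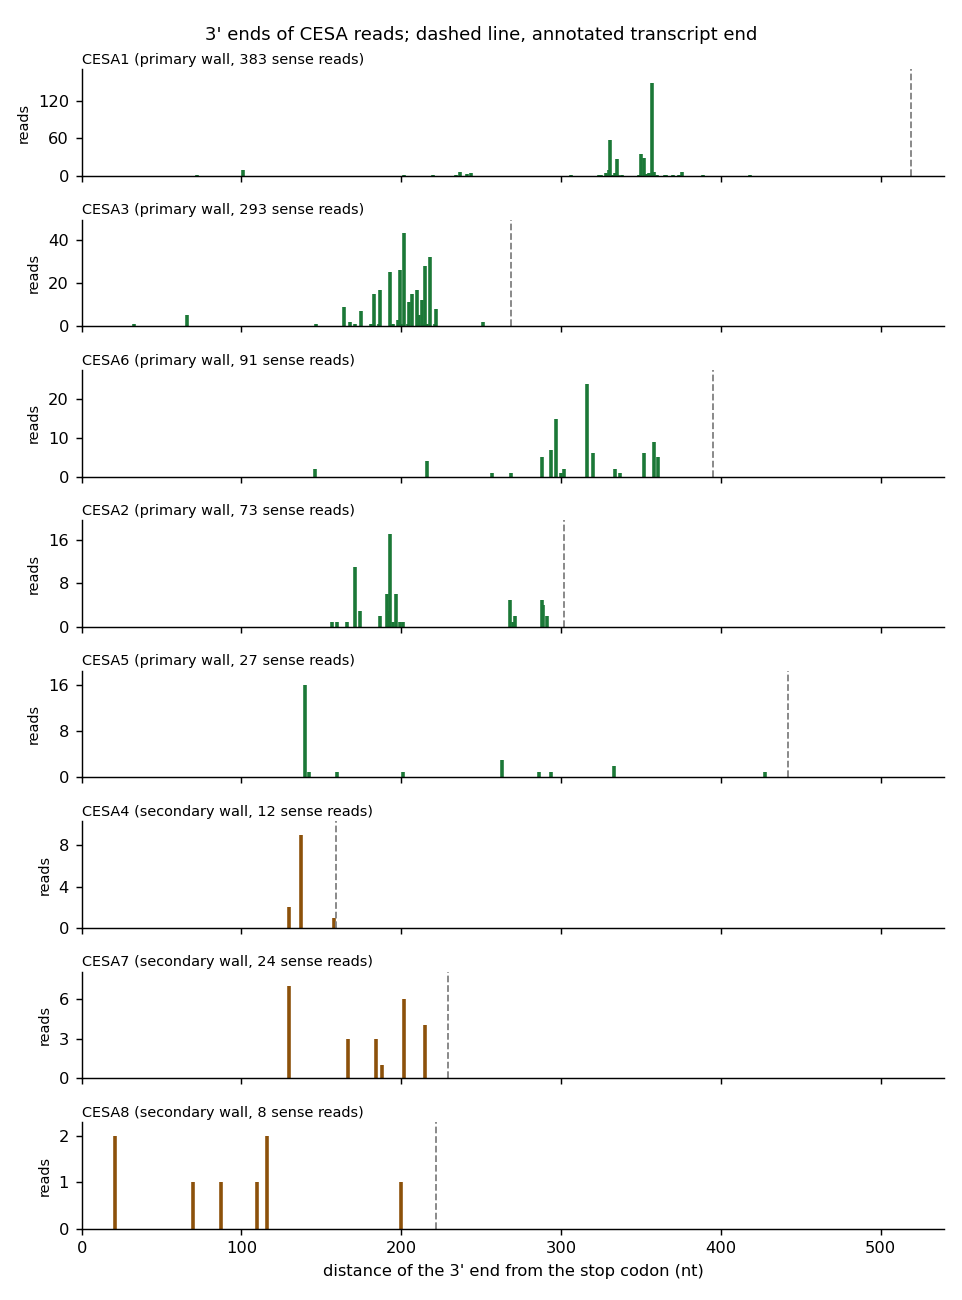
Number of sense reads at each 3′ end (vertical axis) by distance from the stop codon in nt (horizontal axis), 1 row per gene, with the annotated transcript end as a dashed line. CESA1 has a single tall end at 357 nt, CESA3 spreads over 27 ends between 147 and 222 nt, and CESA2 and CESA5 each have a near and a far group of ends.

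CESA1 (chr4:15640490-15646844, minus strand, 14 exons) combined a broad site with 1 favoured base. Its 383 reads had 37 distinct 3′ ends from 72 to 418 nt, and 355 reads (92.7%) fell in a single site from 306 to 389 nt, where a site is a chain of 3′ ends with gaps of at most 24 nt. The base at 357 nt took 148 reads, or 38.6% (33.7 to 43.7%), and its share was 40.8%, 38.4% and 34.7% in lanes 3, 4 and 5. Both values were near those of other genes. Among the 9294 genes, the site share stood at percentile 50.7 (median 92.5%) and the share at 357 nt at percentile 59.1 (median 34.4%). These 148 reads had 26 distinct starts, so the peak was not made of copies of 1 fragment alone, but 44 of them were the same fragment. With identical reads counted once, 357 nt still led, but with 26 of 131 fragments, or 19.8%. The next ends were at 331 nt (57 reads, 18 starts), 350 nt (34 reads, 12 starts), 352 nt (28 reads, 9 starts) and 335 nt (26 reads, 14 starts). All 5 of these ends have T as the last base and A as the next base of the genome. In contrast, the 9 reads at 101 nt shared 1 start, and the annotated end at 519 nt, 162 nt past the favoured base, was reached by none.

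CESA3 (chr5:1530132-1535558, minus strand, 15 exons) had nearly all reads in 1 site and no dominant base within it. Of its 294 named reads, 285 (96.9%) ended from 147 to 222 nt at 27 positions. The most used base, at 202 nt, had 43 of 293 sense reads, or 14.7% (10.8 to 19.3%), followed by 218 nt with 32, 215 nt with 28, 199 nt with 26 and 193 nt with 25. Only 2.17% of the 9294 genes had a smaller share at their most used end. With identical reads counted once, 202 nt held 16 of 124 fragments, or 12.9%. In 8 reads drawn from each gene without replacement, the expected number of distinct 3′ ends was 6.30 for CESA3, at percentile 95.9, against 4.95 for CESA1, at percentile 55.1, and a median of 4.80 over those genes (quartiles 3.95 and 5.51). The share at 202 nt was 13.8%, 14.9% and 15.7% in lanes 3, 4 and 5, with overlapping intervals. The lanes are runs of 1 library and share copies of fragments, so they are no replicates.

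CESA6 (chr5:25881033-25886728, plus strand, 13 exons) ended in 1 long site with reads at several separate bases. From 257 to 361 nt it had 85 of its 91 reads (93.4%), with 24 at 316 nt, 15 at 297 nt and 9 at 358 nt. These 3 ends had 11, 5 and 3 distinct starts. Scatter was above the median of other genes, with 5.56 distinct ends expected in 8 reads (percentile 76.8).

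CESA2 (chr4:18296388-18302192, plus strand, 13 exons) had 2 separate sites. The near site, from 157 to 201 nt, held 54 of 73 reads (74.0%, 62.4 to 83.5%), and the far site, from 268 to 291 nt, held 19 (26.0%, 16.5 to 37.6%). Within the near site 193 nt had 17 reads and 171 nt had 11. In the far site 268 and 288 nt had 5 each. The far site took 13.8% of reads in lane 3, 40.7% in lane 4 and 23.5% in lane 5, with overlapping intervals at 17 to 29 reads a lane.

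CESA5 (chr5:3072870-3078416, plus strand, 13 exons) mostly used an end far short of its annotation. At 140 nt it had 16 of 27 reads, or 59.3% (38.8 to 77.6%), with 6 distinct starts, 302 nt before the annotated end. Farther out, 3 reads ended at 263 nt, 2 at 333 nt and 1 at 428 nt, the last of these 14 nt from the annotated end. Its far ends each rested on 1 start.

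The secondary wall genes had too few reads to rank their ends. CESA4 (chr5:17714390-17719723, plus strand, 12 exons) had 9 of 12 sense reads at 137 nt, from 2 starts, with 2 reads at 130 nt and 1 at 158 nt. CESA7 (chr5:5736630-5741500, minus strand, 12 exons) had 7 of 24 sense reads at 130 nt, all of them copies of 1 fragment, and 6 at 202 nt from 3 starts. By distinct starts, 130 nt was therefore not its leading end, and 167 and 202 nt tied with 3 starts each. CESA8 (chr4:10312624-10316886, minus strand, 12 exons) had 8 reads at 6 ends from 21 to 200 nt, with 2 reads each at 21 and 116 nt. Its ends were spread over the 3′-UTR, whereas the 12 CESA4 reads spanned 29 nt. That span was bounded by the annotated CESA4 end at 159 nt, and 3 reads that name its neighbour ended past it, as described below.

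**Figure D4:**
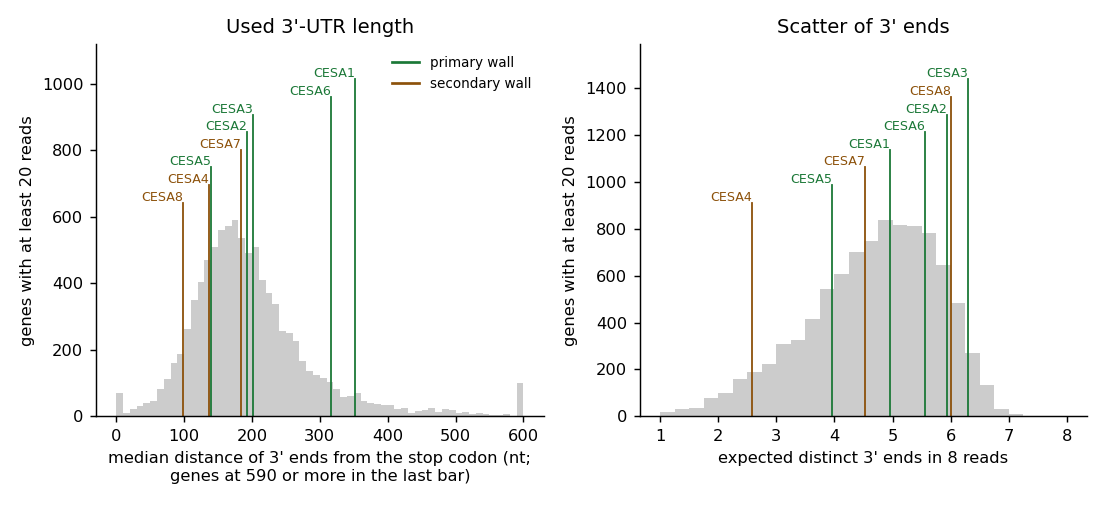
The 8 CESA genes (lines) on the distribution of the 9294 genes with at least 20 reads (grey bars), for the median distance of 3′ ends from the stop codon in nt (left) and the number of distinct 3′ ends expected in 8 reads (right). CESA1 and CESA6 lie at 352 and 316 nt on the left, and CESA3, at 6.30, is the most scattered CESA gene on the right while CESA4, with 12 sense reads, is at 2.58.

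The sequence before the most used ends was searched on the RNA strand. AATAAA itself was found from 40 to 10 nt upstream in 0 of 8 CESA genes, against 12.1% of the main ends of all genes with at least 20 reads. AATAAA or a version with 1 changed base was found in 5 of 8, against 49.5%. The matches were ATTAAA in CESA3, AATAGA in CESA2, AAGAAA in CESA5, AATACA in CESA4 and AGTAAA in CESA7, from 17 to 24 nt upstream of the end, and CESA1, CESA6 and CESA8 had none. At CESA6 the ATTAAA lay upstream of the farther ends at 352, 358 and 361 nt, not of the main one. TGTA was found from 150 to 35 nt upstream in 7 of 8 genes, all but CESA5, against 74.7%. These words are described as letters in a window and no use of them was measured.

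The last base of the reads differed between CESA genes. T was the last base of 671 of 911 sense CESA reads, or 73.7% (70.7 to 76.5%), against 52.7% of all placed reads, and C of 13.7% against 35.7%. CESA1 supplied 337 of these reads (88.0% of its 383), and the share was also above that of all reads in CESA2 (84.9%), CESA5 (81.5%) and CESA3 (66.6%). It was below it in CESA8 (4 of 8 reads, 15.7 to 84.3%), CESA6 (44.0%, 33.6 to 54.8%), CESA7 (41.7%, 22.1 to 63.4%) and CESA4 (8.33%, 0.211 to 38.5%). Of these intervals, only that of CESA4 left out the 52.7% of all reads. By gene, the most used end had T as its last base in 5 of 8 CESA genes, against 49.7% of the genes with at least 20 reads. These 5 include CESA7 at 130 nt, where all reads were copies of 1 fragment, while its end at 202 nt, from 3 starts, had C. At CESA8 the end at 116 nt, with C, tied with the end at 21 nt, with T, at 2 reads each. T was the last base of 75.7% of primary wall reads (72.7 to 78.5%) and of 15 of 44 secondary wall reads (34.1%, 20.5 to 49.9%), in which CESA4 alone gave 9 reads ending in G, from 2 starts. The sense reads of CESA4, CESA7 and CESA8 were only 4, 11 and 6 distinct fragments. CESA6, of the primary wall, was near CESA7, so the contrast did not hold for each gene. In the genome, A followed the 3′ end of 77.2% of CESA reads and 80.6% of all reads. CESA2 stood apart with A after 47.9% and T after 47.9%, as in the run of T around its main end shown above.

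A of the genome just after an end cannot be told from A of the tail, so A-rich stretches were counted. Such a stretch, at least 6 A in a row or at least 7 of 10 bases, followed the main end of 1 of the 8 genes, CESA4, where it touched 9 of 12 reads, against 8.54% of all genes. In CESA1, 9 reads (1 at 220 nt, 2 at 306 nt and 6 at 376 nt) ended before a genomic run of at least 5 A followed by G, and no other CESA gene had such reads. None of these ends was the most used one, and by most used ends the feature was found in 0 of 8 CESA genes, against 1.24% of all genes. The part of genomic A in these reads was not tested.

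Convergent neighbours shared ground with many of these ends. For 5 of 8 CESA genes the annotated transcript overlapped that of a gene on the other strand at its 3′ end (2 of 5 primary and 3 of 3 secondary wall genes), against 21.7% of all genes with at least 20 reads. CESA1 and SHS1 overlapped by 28 nt and no CESA1 read ended there. CESA3 and RUL1, a receptor-like kinase gene that acts in the cambium, overlapped by 74 nt, with 207 of the 293 CESA3 ends inside RUL1 and 5 of the 52 RUL1 reads ending inside CESA3. CESA7 and AT5G17410 overlapped by 66 nt, and 17 of 24 sense CESA7 ends lay in it. Of the 28 reads named CESA7, 4 were antisense and ended in AT5G17410 or within 300 nt of it. Pooled over the CESA genes, 6 of 917 reads were antisense (0.654%), against 4.49% of all reads. These were 4 of 28 reads for CESA7, 1 of 13 for CESA4 and 1 of 294 for CESA3. The pooled share was thus low through the primary wall genes, while CESA7 and CESA4, with few reads, lay above the share of all reads.

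CESA8 had the largest overlap, 481 nt with MYB98 (AT4G18770), a transcription factor gene known for its role in the synergid cells of the ovule. All 8 reads that name CESA8 ended inside it, and all 8 had a mapping quality of 1. By contrast, 9 of the other 909 CESA reads (0.990%) had a score of 0 or 1, against 42.9% of all reads. Every CESA8 read sequence occurred once in the genome. MYB98 had 7 reads and all 7 were antisense, ended 60 to 200 nt after the CESA8 stop codon and had scores of at most 1. By position on the genome and by strand, CESA8 then had 15 reads (8.40 to 24.7) and sense MYB98 had 0. At 116 nt, for example, 2 reads named CESA8 and 1 named MYB98, and at 156 nt both reads named MYB98.

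Reads named on the neighbour were also found at the end of CESA4. The gene AT5G44040 AT5G44040 overlapped CESA4 by 65 nt and had 7 reads, of which 3 were antisense. These 3 ended on the CESA4 strand at 206 and 208 nt, past the annotated CESA4 end at 159 nt. Position counts were 15 for CESA4, 25 for CESA7 and 15 for CESA8, set beside 13, 28 and 8 by name, so the gap between CESA4 and CESA8 was not seen by position. For the primary wall genes the count by position was the same as by name, but for CESA3 with 293 in place of 294.

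**Figure D5:**
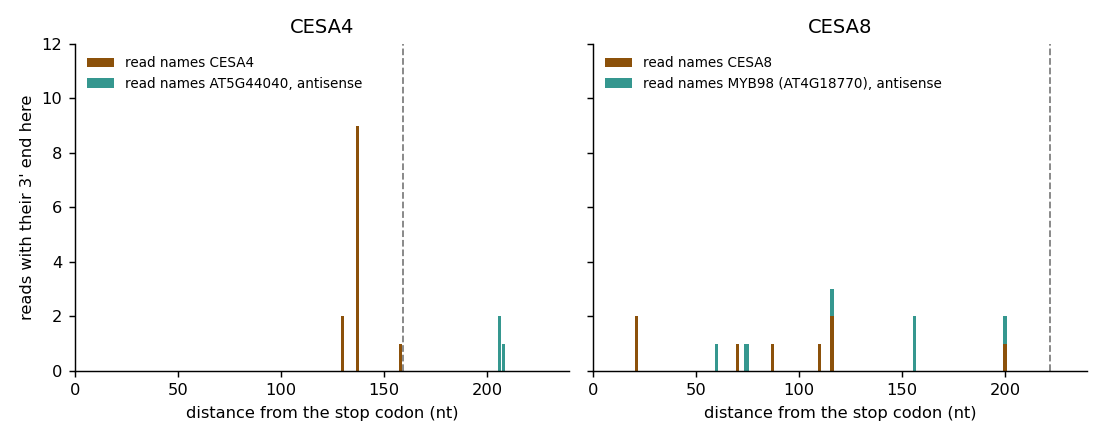
Reads that end at each distance from the stop codon (nt) of CESA4 and CESA8, coloured by the gene the alignment names, with the annotated transcript end dashed. The teal reads are listed antisense to the neighbour, 3 at CESA4 past its annotated end and 7 at CESA8, which brings each gene to 15 reads.

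Copies and read starts set the precision of these values. Among CESA reads 59.8% (56.5 to 63.0%) repeated the transcript, start, end and strand of another read, against 71.6% of all reads, and 61.1% of the CESA repeats lay in another lane than the first copy. By gene the picture differed, with a median share of repeats of 48.0% (quartiles 35.6 and 58.6) over the 9294 genes. CESA1, CESA3, CESA6 and CESA4 stood at percentiles 86.6, 73.0, 74.3 and 87.4 of these genes. CESA2, CESA5 and CESA7 stood at 56.6, 50.2 and 64.6, and CESA8 at 9.96. CESA4 and CESA8, with 12 and 8 sense reads, were below the minimum of 20 set for these genes. The percentiles were not adjusted for read number. The most copied read, of CESA1, had 44 copies (17, 17 and 10 in lanes 3, 4 and 5). Nearly all reads began in the 3′-UTR, with 6 of 293 for CESA3 and 4 of 8 for CESA8 beginning in coding sequence. G stood just before the start of 19.9% of CESA reads and 19.7% of all reads. Before the 3 bases that were trimmed, T stood in 78.9% of CESA reads and 75.7% of all reads, and G in 10.9% and 11.0%.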

How the data were processed

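Total RNA of whole 2-week-old Col seedlings was digested partially with RNase T1, and tailed fragments were captured and ligated to a 3′ adaptor, as the methods of the study state. The authors kept first-end reads with the adaptor, trimmed off 3 random bases, adaptor and tail, and aligned what was left with Bowtie2 (TAIR10, per the labels). The version of the transcript sequences that the alignments name is not given in the sources used here. The deposited file lists 1 alignment per read, with its place in a transcript and a mapping quality score. Removal of duplicates is not stated, and the reads repeated by transcript, start, end and strand were kept. The shortest alignment was 16 nt.

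Each read was placed on TAIR10.1 (RefSeq) through the exons of the transcript of that name, which placed 2753402 of 2786281 reads. Reads on 433 transcripts that could not be matched (19281 reads) and on 138 with a read past their end (13598 reads) were left out of positions. Antisense reads were kept in counts by name and left out of distances. Sites were chains of 3′ ends with gaps of at most 24 nt. Position counts took the strand and up to 300 nt downstream. Low mapping quality means a score of at most 1. The 9294 genes with at least 20 placed sense reads served as background, with percentiles as the share of them below a value. Distinct ends in 8 reads were computed as an exact expectation. Intervals were Clopper-Pearson for shares and Poisson for counts, at 95%, and a count of 0 was set to a limit of 3 reads.

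The named genes were the 8 members, the lists of other CESA genes, partners, xylem wall genes, synthase-like genes and tissue markers, and convergent genes in which member reads end. Members and lists were chosen with earlier results of these data known. Alternatives for mapping quality, identical reads, strand, gene of a read, site width, transcript and signal were computed. Tested on simulated data, placement returned 2000 of 2000 positions. Python 3.11.15, numpy 2.4.6, pandas 2.3.3, scipy 1.17.1 and matplotlib 3.10.9 were used.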

Additional observations from a re-analysis of the deposited data

Results flagged for a closer look

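The reads at the end of CESA8 that the alignments list antisense to its neighbour MYB98 (AT4G18770) lay outside the count by gene name and were above the 3 reads that a count of 0 allows. There were 7 of them, beside 8 reads that name CESA8, and MYB98 had 0 sense reads.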

How the results depend on the processing

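Of 23 recomputed values for the main results, 17 stayed within the spread or interval set for the value and 6 did not. The primary wall share was 94.7%, and it was 85.5% when each distinct 3′ end was counted once per gene. The median share of the main site was 83.1%, and it was 56.8% with 3′ ends joined within 10 nt and 39.6% within 5 nt of the most used base. The share with low mapping quality was 1.85%, and 3.52% with identical reads counted once. The share of repeated reads was 59.8%, and 85.7% when reads with the same 3′ end were counted as repeats whatever their start. The signal was found in 5 genes with 1 changed base allowed and in 0 with AATAAA alone. These alternatives change what is counted by construction, but for the share with low mapping quality, where the cause was not tested.

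Of 48 recomputed read numbers of single genes, 32 were classed as the same and 16 as moved. Those classed as moved lay outside their interval, except CESA8 by position, whose 15 reads lay within the interval by name (3.45 to 15.8). CESA8 had 8 reads by name, 0 where scores of at least 10 were required, and 15 by position. The median used 3′-UTR length of 188 nt ranged from 166 to 193 nt, and leaving out antisense reads gives no separate value for it, because distances used sense reads. No paired analysis was possible because there was 1 library. Depth limits CESA4, CESA7, CESA8 and CESA5 most, with 5, 14, 6 and 14 distinct reads.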
